A study of Homo sapiens with 12 samples.

Results

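The human translation initiation factors were taken as every row of the expression table whose gene symbol begins with EIF followed by a digit from 1 to 6, which gave 59 of 34687 rows. They fell into 13 groups by factor number, from eIF1 to eIF6, and the symbol alone chose them. The table came from a pair of human cancer lines, HCT116 from colon and PANC1 from pancreas, each grown with 0.05% DMSO, with 10 uM ICG-001 or with 10 uM C646 for 12 or 96 h. ICG-001 is a small molecule that binds CBP and blocks its contact with β-catenin, and C646 occupies the acetyl-CoA site of CBP and p300 and so inhibits their histone acetyltransferase activity. The labels name no genetic change in any group, and DMSO, the solvent, served as the control of each line and time point. Cells kept for 96 h were plated thinner, were passaged and had their medium and drug renewed, so the time points differed in more than the length of exposure. Each of the 12 groups had 1 column of signals, which the authors made by averaging 2 arrays (3 in the PANC1 group with 12 h of ICG-001). Single arrays were not analysed, so the differences given here have no replicate check and no error, and no test was run.

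Initiation is the step at which a ribosome is brought to an mRNA and set on the start codon. The factor eIF2 delivers the initiator tRNA, eIF1, eIF1A, eIF3 and eIF5 hold the small ribosomal subunit ready for scanning, and the eIF4 factors recognise the cap, unwind the leader and bridge to the ribosome. Cells lower initiation mainly at a pair of points, by phosphorylating eIF2 through the EIF2AK kinases and by binding eIF4E with the EIF4EBP proteins, which mTORC1 keeps inactive in growing cells.

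Not every row chosen by its symbol is an initiation factor. The 4 EIF2C rows carry the older names of the Argonaute proteins AGO1 to AGO4, which bind small RNAs, and EIF4A3 is the helicase of the exon junction complex. EIF3IP1 is a transcribed pseudogene of EIF3I. Of the 59 rows, 55 bore a current RefSeq symbol and 4, the EIF2C rows, an older one. EIF2A is also an older name of EIF2S1, EIF2AK1 of EIF2AK2 and EIF3A of EIF6, and which gene the probes of these 3 rows read was not checked. The pairs EIF3C and EIF3CL, EIF1AX and EIF1AY, and EIF5A and EIF5AL1 are near-identical copies whose probes may read each other's RNA. In the 12 columns 53 members lay above the detection limit, a signal set from the background of each column, everywhere, and 6 members did so in some columns. Those 6 were EIF1AY, EIF2C4, EIF3IP1, EIF4E1B, EIF4E3 and EIF5AL1. EIF1AY is Y-linked, and although it is counted among the members its values are not given.

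The series gave these columns a common shape. Median signals were 139.05 to 139.64 over the columns of HCT116 and 132.7 to 133.5 over those of PANC1, with limits of 142.2 to 144.1 and 134.6 to 138.0, and 15423 to 16638 genes of a column were above the limit. Sorted log2 signals differed on average by 0.0037 to 0.0093 within a line and 0.063 to 0.066 between lines, so the lines may have been normalized apart. Signals are therefore compared within a line and lines only through their ratios. Of the marker genes of the lines, epithelial KRT8 was at 4030.3 to 5490.1 in HCT116 and 2892 to 7608 in PANC1, whereas the colon markers VIL1, CDX1, CDH17 and LGALS4 were under the limit in every HCT116 column and CDX2 was above it, at 354 to 452. In PANC1 the colon marker CDX2 was also above the limit in 6 columns, at 187 to 223, LGALS4 in 5 and CDH17 in 2. Vimentin (VIM) was at 14637 to 18144 in PANC1 and 257 to 335 in HCT116. The duct marker KRT7 was close to the limit in PANC1, at 148 to 185, and was at 140 to 389 in HCT116. GATA6 was above the limit in 1 column of each line. SOX9 was at 723 to 1462 in PANC1 and 399 to 1522.5 in HCT116. The blood markers PTPRC and CD3E and the endothelial marker PECAM1 were under the limit in all 12 columns, and the liver marker ALB was just above it, at 148 to 169.6 in HCT116 and 153 to 169 in PANC1. Some markers differed at least 1.5-fold from DMSO, KRT7 being higher with ICG-001 in HCT116, KRT8 and KRT19 lower at 96 h of ICG-001 in PANC1 and SOX9 lower with C646 in both lines, and their part in the results for the members was not tested. The columns read RNA of whole cultures, so fewer cells holding a transcript and less of it per cell cannot be told apart.

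To determine how far the drugs altered initiation factor transcripts, each drug column was set against the DMSO column of its line and time point, and a member was called where the signals differed at least 1.5-fold, a log2 ratio of 0.58 in size. Few members were called at this threshold, in shares near those of all genes. In HCT116 cells ICG-001 altered 4 of 59 (3 higher and 1 lower) members tested at 12 h, beside 8.93% of all genes tested, and 8 of 58 (3 higher and 5 lower) at 96 h, beside 10.2%. C646 altered 3 of 57 (2 higher and 1 lower) in that line at 12 h, beside 4.03%, and 3 of 55 (2 higher and 1 lower) at 96 h, beside 3.12%. In PANC1 cells the numbers for ICG-001 were 1 of 56 (1 higher and 0 lower) at 12 h, beside 2.49%, and 5 of 56 (2 higher and 3 lower) at 96 h, beside 7.36%. With C646 they were 4 of 56 (2 higher and 2 lower) at 12 h, beside 6.64%, and 2 of 55 (1 higher and 1 lower) at 96 h, beside 3.99%. The median log2 ratio of the members tested lay between -0.10 and 0.06 in these 8 comparisons, and that of all genes between -0.012 and 0.0048. Of the 53 members that could be tested in all 8, 14 (26.4%) were called in at least 1, and so were 27.1% of 13638 genes. The other 45 of the 59 were called in none. At a lower threshold of 1.2-fold the shares of members and of all genes lay further apart with ICG-001, at 33.9% of members against 16.9% of genes at 12 h and 42.9% against 29.1% at 96 h in PANC1, and 40.7% against 32.2% and 46.6% against 33.7% in HCT116. With C646 they were 22.8% against 21.3% and 10.9% against 19.7% in HCT116, and 26.8% against 26.5% and 25.5% against 21.3% in PANC1. Between the DMSO columns, with no drug, they were 38.6% against 21.7% in HCT116 and 13.0% against 15.3% in PANC1. Whether the larger share with ICG-001 came from the drug was not tested. The 14 called at 1.5-fold were split into 5 that were higher (EIF1, EIF2AK4, EIF2C1, EIF2C2 and EIF6) and 9 that were lower (EIF2A, EIF2B2, EIF3CL, EIF3G, EIF3K, EIF4A3, EIF4B, EIF4EBP2 and EIF5A), and they gave 30 calls. No member was called in opposite directions.

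**Figure D1:**
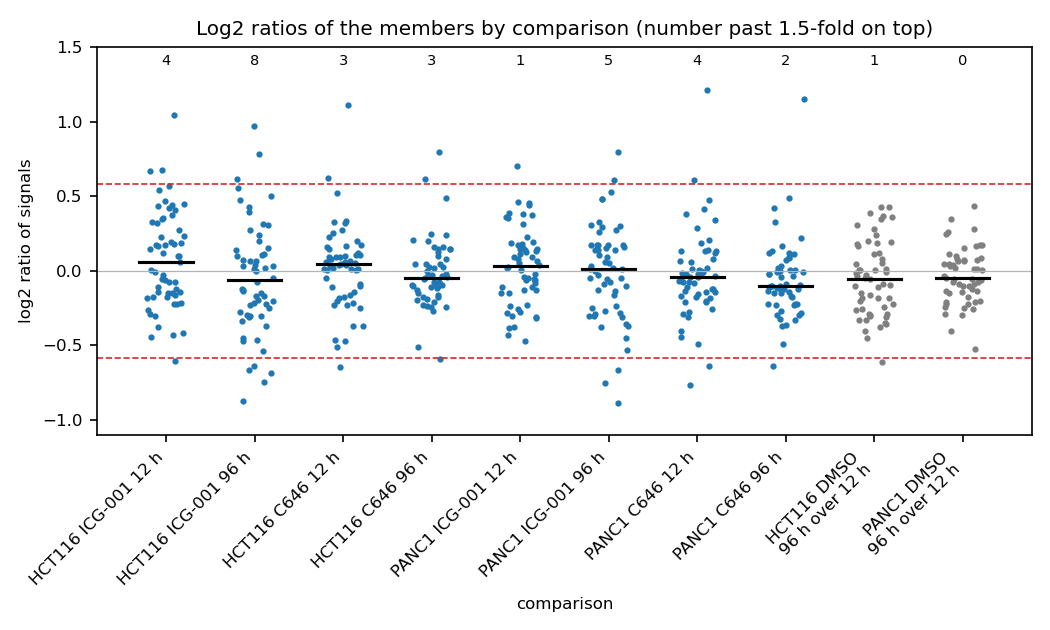
Log2 ratio of every member tested but EIF1AY (points) in the 8 comparisons of a drug with DMSO and, in grey, between the DMSO columns of the time points, with the median of the members as a black bar and 1.5-fold as dashed lines. Medians stay within 0.11 of 0, and the number past 1.5-fold, printed on top, runs from 0 between the PANC1 DMSO columns to 8 after 96 h of ICG-001 in HCT116.

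The kinases that phosphorylate eIF2 held the member with the most calls. EIF2AK4 (GCN2) senses uncharged tRNA, and its signal in HCT116 was 491 and 634 with DMSO at 12 and 96 h, 664 and 970 after ICG-001 and 1060.5 and 971 after C646. In PANC1 it was 508 and 565 with DMSO, 826 and 864 after ICG-001 and 1178 and 1257 after C646. All 4 drug columns of each line lay above both DMSO columns of that line. EIF2AK4 passed 1.5-fold in 7 of 8 comparisons, as 0.521% of genes did in 7 or 8. The exception was ICG-001 at 12 h in HCT116, at a log2 ratio of 0.44. With C646 the log2 ratios were 1.11 and 0.61 for HCT116 and 1.21 and 1.15 for PANC1, that is 2.32-fold and 2.22-fold higher in the latter line.

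The other eIF2 kinases were not called against DMSO. The row EIF2AK1, by its current name HRI, which responds to haem shortage, had HCT116 signals of 2511 and 2838 with DMSO, 2379 and 2749.7 after ICG-001 and 2147 and 2451 after C646. Its PANC1 signals were 2278 and 2772, 2505 and 3128 and 2890.1 and 2997 in the same order. Its log2 ratios were thus -0.08 and -0.05 (ICG-001) and -0.23 and -0.21 (C646) in HCT116 and above 0 in all 4 PANC1 comparisons, up to 0.34. EIF2AK2 (PKR), activated by double-stranded RNA, read 621 and 540.3 with DMSO in HCT116, 555 and 419 after ICG-001 and 696 and 597 after C646, and the log2 ratios in both lines ran from -0.37 to 0.16. In PANC1 EIF2AK2 read 1096 and 1154 with DMSO, 1003 and 1271 after ICG-001 and 1202 and 1294 after C646. EIF2AK3 (PERK), the kinase of the endoplasmic reticulum membrane, read 214 and 259.5 with DMSO in HCT116, 251 and 222 after ICG-001 and 228 and 243 after C646. In PANC1 EIF2AK3 was at 271 and 279 with DMSO, 244 and 229.9 after ICG-001 and 205 and 223 after C646. Every drug column of PANC1 was below both DMSO columns for EIF2AK3, with log2 ratios of -0.15 and -0.28 (ICG-001) and -0.40 and -0.32 (C646). EIF2AK3 was dim, and with normexp background correction its ratio for C646 at 12 h in PANC1 was -0.67, past the threshold. On the signals as deposited, EIF2AK4 was the only eIF2 kinase called in these 8 comparisons.

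Among the subunits of eIF2 itself, EIF2S1 (α, which carries the phosphorylated serine), EIF2S2 (β) and EIF2S3 (γ, which binds GTP and the tRNA) were not called. Their log2 ratios to DMSO ran from -0.23 to 0.35 for EIF2S1, -0.27 to 0.50 for EIF2S2 and -0.47 to 0.18 for EIF2S3. EIF2S2 stood highest with ICG-001 in HCT116, at 0.47 and 0.50, and EIF2S3 was below both DMSO columns in all 4 drug columns of HCT116. EIF2A, a separate factor that can deliver the initiator tRNA without eIF2, had HCT116 signals of 2254 and 2566 with DMSO, 1840.2 and 1532 after ICG-001 and 1945 and 2469 after C646. Its PANC1 signals were 1698 and 1611 with DMSO, 1374 and 1115 after ICG-001 and 1609 and 1384 after C646. EIF2A was below its DMSO column in all 8 comparisons, and it was lowest with 96 h of ICG-001 in each line. It passed 1.5-fold in HCT116, 1.67-fold lower at a log2 ratio of -0.74, and stood at -0.53 in PANC1.

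The exchange factor eIF2B, which recharges eIF2 with GTP and is blocked by phosphorylated eIF2, showed subunits on opposite sides. EIF2B2, the β subunit, had PANC1 signals of 1194 and 1123 with DMSO, 863 and 606 after ICG-001 and 1038 and 913 after C646. In HCT116 it read 1263 and 985 with DMSO, 927 and 781 after ICG-001 and 1268 and 967 after C646. Both ICG-001 columns of each line lay below both DMSO columns for EIF2B2. After 96 h of ICG-001 in PANC1 it was 1.85-fold lower, at a log2 ratio of -0.89, the lowest ratio of any member in that comparison. EIF2B5, the catalytic ε subunit, was above its DMSO column in all 8 comparisons at log2 ratios of 0.12 to 0.52, without a call, and above both DMSO columns in every drug column of both lines. EIF2B1, EIF2B3 and EIF2B4 ran from -0.13 to 0.31, -0.31 to 0.35 and -0.17 to 0.28. EIF2B3 was below 0 in all 4 PANC1 comparisons.

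EIF1 guards the choice of the start codon, and its transcript was higher with ICG-001 than with DMSO or C646 in both lines. In HCT116 its signal was 5761 and 5956 with DMSO, 9159.9 and 10266 after ICG-001 and 5794 and 6585 after C646. In PANC1 it was 4952 and 4992 with DMSO, 6429.7 and 6981 after ICG-001 and 4487 and 4632 after C646. The 2 ICG-001 columns were the highest of the 6 of each line. Both lay above both DMSO columns in both lines, as for 12.7% of genes. The share of genes for which they also lay above both C646 columns was not computed. EIF1 was 1.59-fold (12 h) and 1.72-fold (96 h) higher in HCT116 cells given ICG-001, at log2 ratios of 0.67 and 0.79, and stood at 0.38 and 0.48 in PANC1, under the threshold. With C646 the log2 ratios of EIF1 were 0.01 and 0.14 for HCT116 and -0.14 and -0.11 for PANC1. Its paralog EIF1B was also above both DMSO columns in both ICG-001 columns of each line, at log2 ratios of 0.57 and 0.11 and 0.38 and 0.30, the first of these just under the threshold. EIF1AX, the X-linked eIF1A gene, ran from -0.33 to 0.10 and EIF1AD from 0.00 to 0.32.

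The large scaffold eIF3, which binds the small ribosomal subunit, had 15 rows, of which 3 were called in 1 comparison each, all lower and all with 96 h of ICG-001. They were 2 of 15 in HCT116, beside 10.2% of all genes, and 1 of 15 in PANC1, beside 7.36%, and 3 called in any of the 8 comparisons stood beside 27.1%. EIF3K, a peripheral subunit, read 5330.4 and 5342 with DMSO in HCT116, 3995 and 3377 after ICG-001 and 3858 and 4430.1 after C646. In PANC1 it read 19007 and 18549.6 with DMSO, 17111 and 15013 after ICG-001 and 16756 and 15938 after C646. Every drug column of each line was below both DMSO columns for EIF3K. Its log2 ratio of -0.66 after 96 h of ICG-001 in HCT116 passed the threshold, and the others ran up to -0.15. EIF3G, an RNA-binding subunit, had PANC1 signals of 1898 and 1905 with DMSO, 1461 and 1132 after ICG-001 and 1867 and 1685 after C646. In HCT116 EIF3G read 2478 and 2322 with DMSO, 2069.6 and 1704 after ICG-001 and 2619 and 2184 after C646. EIF3G was called in PANC1 at 96 h of ICG-001, at -0.75, and the same comparison in HCT116 gave -0.45.

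EIF3CL, a copy of the gene for the c subunit, was called in HCT116 at 96 h of ICG-001, with signals of 523 and 395 with DMSO, 449 and 254 after ICG-001 and 463 and 375 after C646. In PANC1 its signals were 402 and 304, 384 and 258 and 436 and 330.5 in the same order. The EIF3CL call was a log2 ratio of -0.64, and the row of its near-identical copy EIF3C gave -0.29 there and 0.54 at 12 h, where EIF3CL gave -0.22. The rows of the copies therefore differed in sign at 12 h, and which gene's RNA each probe read is uncertain. The other 11 rows, EIF3A, EIF3B, EIF3D, EIF3E, EIF3F, EIF3H, EIF3I, EIF3IP1, EIF3J, EIF3L and EIF3M, had no log2 ratio past 0.46 (EIF3H) or -0.54 (EIF3F). Over the eIF3 rows tested the median log2 ratio was between -0.20 and 0.15 in the 8 comparisons, lowest at 96 h of ICG-001 in HCT116. There 11 of 15 were below 0, while 50.8% of all genes were above 0.

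**Figure D2:**
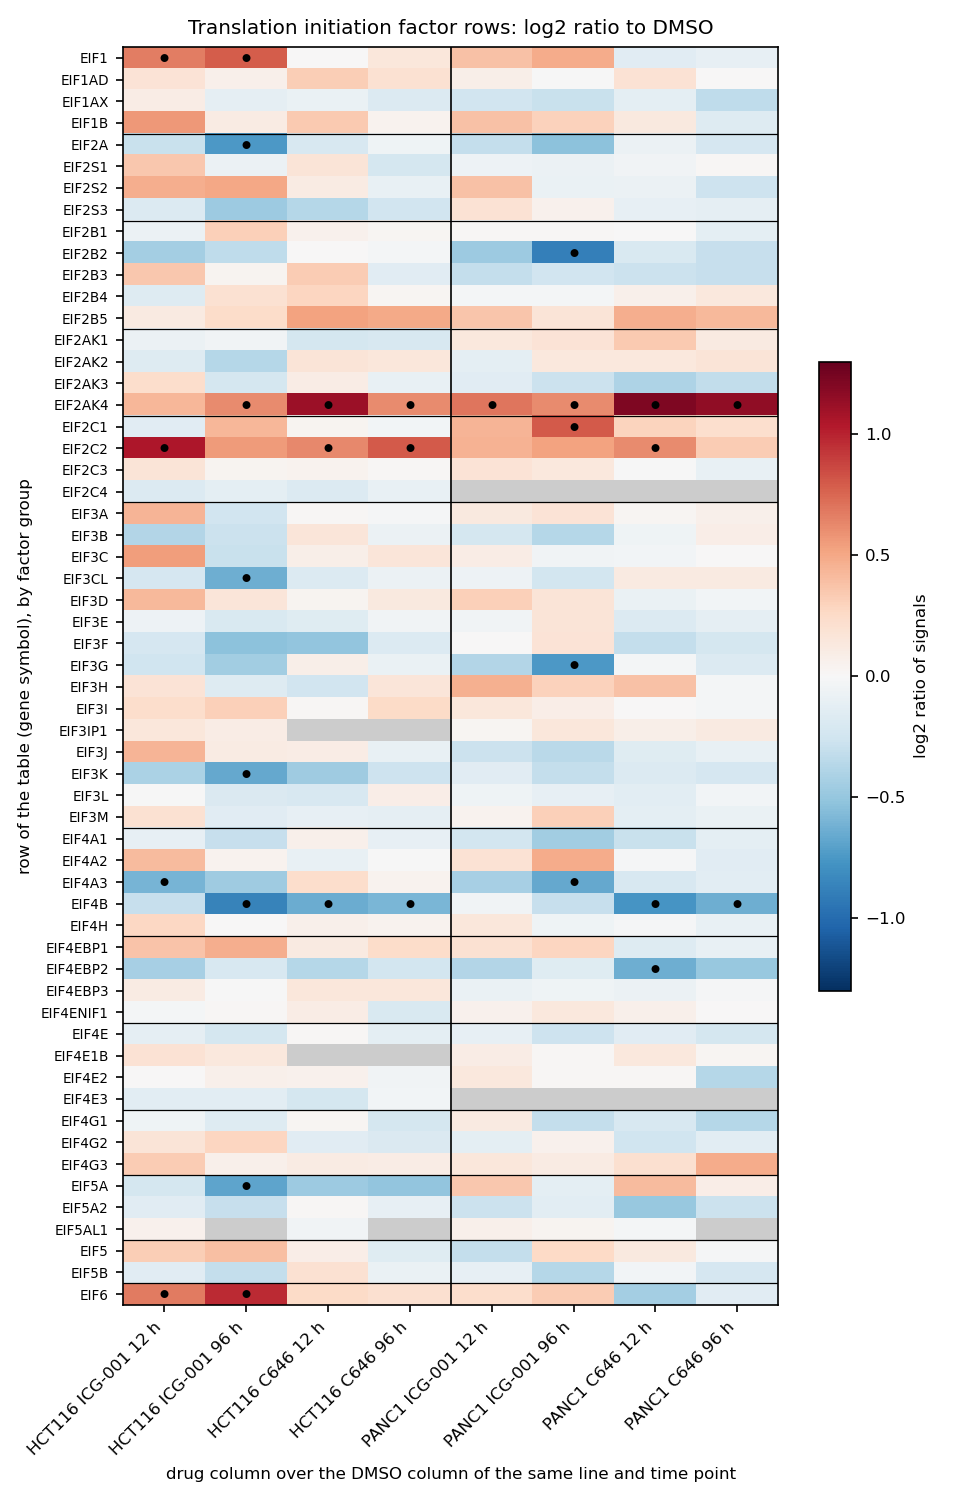
Log2 ratio of each member but EIF1AY (rows, in factor groups) in each drug column over the DMSO column of its line and time point, red for higher and blue for lower, with a dot at 1.5-fold or more and grey where neither column was above the limit. EIF2AK4 has dots in 7 of 8 comparisons and EIF4B in 5. Counting EIF1AY, which is not drawn, 45 of the 59 members were called in none.

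Among the factors that work in or with the cap-binding complex eIF4F, EIF4B was called most often. EIF4B stimulates the helicase eIF4A, and its HCT116 signals were 5870.4 and 7692 with DMSO, 4767 and 4211 after ICG-001 and 3752 and 5106 after C646. Its PANC1 signals were 4063 and 3532 with DMSO, 3941 and 2869 after ICG-001 and 2385 and 2268 after C646. EIF4B was below DMSO in all 8 comparisons and at least 1.5-fold lower in 5, as 1.25% of genes were in 4 or more. The calls were all 4 comparisons of C646, at log2 ratios of -0.65 and -0.59 for HCT116 and -0.77 and -0.64 for PANC1, and ICG-001 at 96 h in HCT116, at -0.87. In PANC1 the ICG-001 ratios of EIF4B were -0.04 and -0.30, and the ICG-001 12 h column, at 3941, lay between the DMSO columns. The HCT116 DMSO columns of EIF4B differed by 0.39 on the log2 scale, higher at 96 h, and against the DMSO column of the other time point the EIF4B ratios were -0.48 (ICG-001) and -0.20 (C646) at 96 h in HCT116 and -0.57 for C646 at 12 h in PANC1, no longer calls.

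The helicase EIF4A1 ran from -0.45 to 0.06 and its paralog EIF4A2 from -0.15 to 0.48, and neither was called against DMSO. At 96 h of ICG-001 in PANC1 they stood on opposite sides, at -0.45 and 0.48. EIF4H, related to EIF4B, stayed within -0.10 and 0.27. EIF4A3, which marks spliced exon junctions, had HCT116 signals of 7748 and 6093 with DMSO, 5093 and 4409.6 after ICG-001 and 9051 and 6298 after C646. In PANC1 it had 5804 and 4876 with DMSO, 4314 and 3077 after ICG-001 and 5013 and 4433 after C646. The ICG-001 columns of EIF4A3 were the lowest of each line at each time point. Both lay below both DMSO columns in both lines, as for 12.7% of genes, and the share with C646 included was not computed. EIF4A3 passed the threshold with ICG-001 at 12 h in HCT116, at -0.61, and at 96 h in PANC1, at -0.66. The other ICG-001 comparisons gave -0.47 and -0.43.

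The cap-binding protein EIF4E and the scaffolds EIF4G1, EIF4G2 and EIF4G3 were not called. EIF4E read 191 to 224 in HCT116 and 155 to 186 in PANC1, and its log2 ratios ran from -0.27 to 0.01. EIF4E2, a cap-binding relative, ran from -0.37 to 0.14. EIF4E3 was above the limit in all 6 HCT116 columns, at 246 to 358, and under it in all 6 PANC1 columns, and EIF4E1B was near the limit in both lines. EIF4G1 ran from -0.37 to 0.11 and EIF4G2, which lacks the part that binds EIF4E, from -0.25 to 0.28. EIF4G3 was above DMSO in all 8 comparisons, at 0.07 to 0.49, and above both DMSO columns in every PANC1 drug column, where it read 945 and 987 with DMSO and 1089 and 1383 with C646.

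The proteins that bind EIF4E and keep it from the scaffold differed among themselves. EIF4EBP1 read 234 and 201 with DMSO in HCT116, 304 and 279 after ICG-001 and 254 and 237 after C646. In PANC1 it read 164 and 158 with DMSO, 187 and 191 after ICG-001 and 145 and 147 after C646. Both ICG-001 columns of each line were above both DMSO columns for EIF4EBP1, at log2 ratios of 0.37 and 0.48 and 0.19 and 0.28. EIF4EBP1 is close to the limit in PANC1, where background left in the signal shrinks its ratios, and normexp background correction gave 0.81 at 96 h of ICG-001 in HCT116, past the threshold. EIF4EBP2 read 516 and 422 with DMSO in HCT116, 384 and 364 after ICG-001 and 399 and 358 after C646. In PANC1 it read 554 and 468 with DMSO, 424 and 418 after ICG-001 and 356 and 333 after C646. EIF4EBP2 was below both DMSO columns in all drug columns of both lines, and it passed the threshold with C646 at 12 h in PANC1, at a log2 ratio of -0.64. EIF4EBP3 was at 159.5 and 160.1 with DMSO in HCT116, 171 and 159.8 after ICG-001 and 176 and 177 after C646, and at 174 and 163, 165 and 157 and 166 and 162 in PANC1. Its log2 ratios, -0.08 to 0.15, were small throughout. EIF4ENIF1, the carrier of EIF4E into the nucleus, ran from -0.19 to 0.14.

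**Figure D3:**
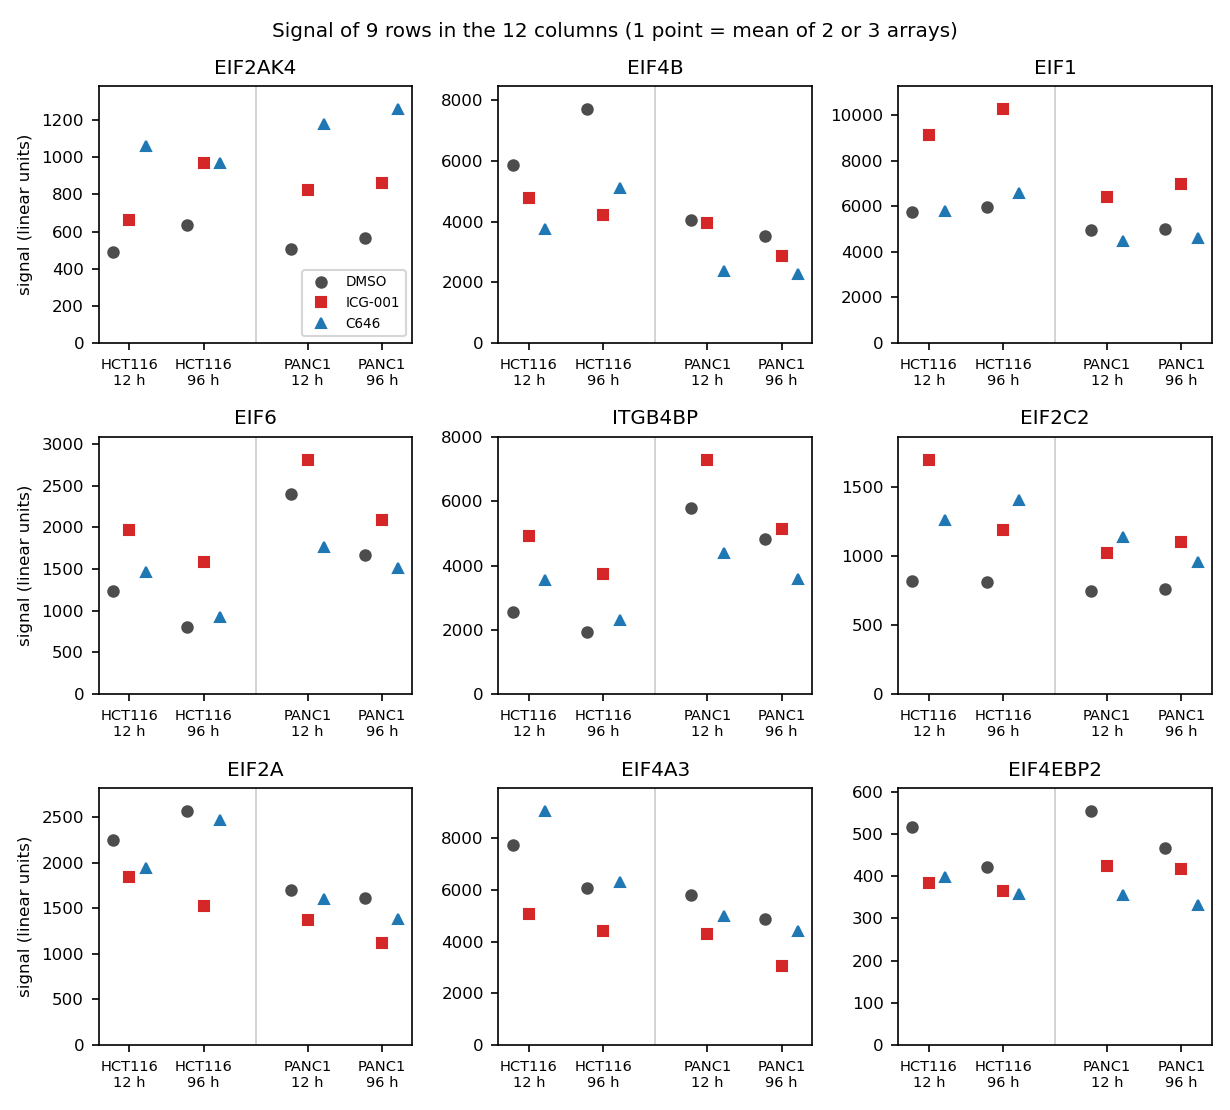
Signal on a linear scale (y axis from 0) of 8 members and of ITGB4BP, a further row for EIF6, in the 12 columns, with DMSO as circles, ICG-001 as squares and C646 as triangles. EIF2AK4 and EIF2C2 lie above both DMSO columns with each drug in each line, EIF1 does so with ICG-001, and EIF4EBP2 lies below them with each drug.

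Late-acting factors included EIF6, which keeps the ribosomal subunits apart and is needed to make the large subunit. EIF6 read 1234 and 807 with DMSO in HCT116, 1971 and 1582 after ICG-001 and 1469 and 929 after C646. In PANC1 EIF6 read 2395 and 1668 with DMSO, 2803 and 2091 after ICG-001 and 1762 and 1508 after C646. At each time point of each line the ICG-001 column was the highest of 3. The share of all genes with this order was not computed. The ICG-001 log2 ratios of EIF6 were 0.68 and 0.97 in HCT116, both past the threshold, and 0.23 and 0.33 in PANC1. Against the DMSO column of 12 h the ratio at 96 h of ICG-001 in HCT116 was 0.36. A further row of the table, ITGB4BP, is the older name of the same gene and lies outside the rule on symbols. For ITGB4BP the ICG-001 ratios were 0.96 and 0.96 for HCT116 and 0.33 and 0.08 for PANC1, and the C646 ratios were 0.48 and 0.27 and -0.41 and -0.43, against 0.25 and 0.20 and -0.44 and -0.15 for the EIF6 row. The rows of this gene had the same sign in all 8 comparisons. EIF5, which triggers GTP hydrolysis by eIF2, ran from -0.31 to 0.39, and EIF5B, which joins the ribosomal subunits, from -0.37 to 0.20.

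EIF5A, the hypusine-bearing factor that also helps elongation past proline stretches, was lower than DMSO with both drugs in HCT116. Its HCT116 signals were 7051 and 5964 with DMSO, 6032 and 3710.1 after ICG-001 and 5088 and 4179.8 after C646. Its PANC1 signals were 1597 and 2157 with DMSO, 2042 and 1972 after ICG-001 and 2126 and 2286 after C646. In HCT116 the log2 ratios were -0.23 and -0.68 with ICG-001, of which the second was called, and -0.47 and -0.51 with C646, and in PANC1 they were 0.35 and -0.13 and 0.41 and 0.08. The PANC1 DMSO columns of EIF5A differed by 0.43 on the log2 scale, higher at 96 h. Both 12 h drug columns of PANC1 lay below the DMSO column of 96 h. The difference between the lines was not tested. EIF5A2 ran from -0.49 to 0.02, and EIF5AL1 was near the limit.

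Of the Argonaute rows, EIF2C2 (AGO2, the slicing Argonaute) was above both DMSO columns in every drug column of both lines. In HCT116 it read 819 and 809 with DMSO, 1692 and 1189.6 after ICG-001 and 1258 and 1403 after C646. In PANC1 it read 745 and 763 with DMSO, 1021 and 1099 after ICG-001 and 1137 and 957 after C646. EIF2C2 was 2.07-fold higher at 12 h of ICG-001 in HCT116, at a log2 ratio of 1.05, and was called in 4 comparisons, as 4.16% of genes were higher in 3 or more. EIF2C1 (AGO1) read 309.5 and 334 with DMSO in PANC1, 419.7 and 580.2 after ICG-001 and 377 and 389.6 after C646, and was called at 96 h of ICG-001, at 0.80. In HCT116 EIF2C1 read 329 and 305 with DMSO, 296 and 410.2 after ICG-001 and 337 and 298 after C646. EIF2C3 (AGO3) ran from -0.10 to 0.18, and EIF2C4 (AGO4) was under the limit in all PANC1 columns.

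Directions held in every column were then counted. Among 53 members, 4 (EIF2B5, EIF2AK4, EIF2C2 and EIF4G3) were above DMSO in all 8 comparisons, beside 9.82% of genes, and 4 (EIF2A, EIF3K, EIF4B and EIF4EBP2) were below it in all 8, beside 11.7%. In PANC1 12 of 53 members were below both DMSO columns in all 4 drug columns, beside 15.4% of genes, and 5 were above, beside 12.8%. The 12 below were EIF1AX, EIF2A, EIF2B2, EIF2B3, EIF2AK3, EIF3G, EIF3J, EIF3K, EIF4EBP2, EIF4E, EIF5A2 and EIF5B. In HCT116 5 of 54 were below, beside 12.3%, and 5 were above, beside 11.5%. In both lines together, 7 members (EIF1, EIF1B, EIF2B5, EIF2AK4, EIF2C2, EIF2C3 and EIF4EBP1) were above both DMSO columns in both ICG-001 columns, beside 12.7%, and 8 (EIF2A, EIF2B2, EIF3B, EIF3G, EIF3K, EIF4A3, EIF4EBP2 and EIF4E) were below, beside 12.7%. For C646 3 (EIF2B5, EIF2AK4 and EIF2C2) were above, beside 11.9%, and 4 (EIF3E, EIF3K, EIF4B and EIF4EBP2) were below, beside 14.3%. The 8 comparisons share DMSO columns between the drugs, so the drugs' ratios to DMSO are not independent of each other.

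A direct ratio of ICG-001 to C646 needs no DMSO column. In HCT116 at 12 h, 1 of 58 members tested were higher with ICG-001 and 2 lower than with C646, beside 6.18% of all genes in either direction. These were EIF1 at a log2 ratio of 0.66, EIF2AK4 at -0.68 and EIF4A3 at -0.83. At 96 h in that line 3 of 57 were higher and 1 lower, beside 6.52%, namely EIF1 (0.64), EIF2S2 (0.60), EIF6 (0.77) and EIF2A (-0.69). In PANC1 EIF4B (0.72) and EIF6 (0.67) were called at 12 h, 2 of 56 beside 2.48%. At 96 h in PANC1 EIF1 (0.59), EIF4A2 (0.63) and EIF2B2 (-0.59) were called, 3 of 56 beside 6.72%. EIF1 was thus at least 1.5-fold higher with ICG-001 than with C646 in 3 of 4 comparisons and stood at 0.52 in the other, PANC1 at 12 h. EIF6 was above C646 in all 4, at 0.42 and 0.77 for HCT116 and 0.67 and 0.47 for PANC1. EIF2AK4 was at or below C646, at -0.51 and -0.54 in PANC1 and equal within rounding at 96 h in HCT116.

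Time in culture moved few members past 1.5-fold. Between the DMSO columns of 96 and 12 h only EIF6 was called in HCT116, 1 of 57 members, at a log2 ratio of -0.61, beside 3.07% of genes. None of 54 was called between the PANC1 DMSO columns, beside 1.31%, where EIF6 stood at -0.52. At 1.2-fold the share was 38.6% of members against 21.7% of genes between the HCT116 DMSO columns, and 13.0% against 15.3% between those of PANC1. With ICG-001 in HCT116, 4 of 58 members were lower at 96 than at 12 h, beside 6.83%, namely EIF3C (-0.94), EIF3CL (-0.82), EIF3J (-0.72) and EIF5A (-0.70). In that comparison 47 of 58 members were below 0 and the median was -0.18. Of all genes 49.0% were above 0 there, with a median of -0.006. With C646 in HCT116 EIF2B3 (-0.74), EIF5B (-0.59) and EIF6 (-0.66) were lower at 96 h, 3 of 55 beside 7.01%. In PANC1 no member was called between the time points of ICG-001 (of 56, beside 3.92%) or of C646 (of 56, beside 0.477%).

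Many mRNAs of the translation machinery begin with a C followed by a run of pyrimidines, a 5′ terminal oligopyrimidine (TOP) start through which LARP1 and mTORC1 control their translation and stability. To see which members carry such a start, RefSeq start sequences (GRCh38.p14) were read for 48 members, and 8 (16.7%) had a C at an annotated start followed by at least 4 pyrimidines on the sense strand, as did 985 of 15467 rows of the table with a sequence (6.37%). This class was chosen after the values were seen. Shown here are the 8 and, for contrast, EIF2AK4, EIF1 and EIF4A3, each 5′ to 3′ from 10 bases before the annotated start to 20 bases from it on, with the pyrimidine run in capitals.
EIF2A: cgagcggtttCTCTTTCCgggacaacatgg (chr3:150546777-150546806, + strand)
EIF2S3: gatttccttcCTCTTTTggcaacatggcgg (chrX:24054946-24054975, + strand)
EIF3D: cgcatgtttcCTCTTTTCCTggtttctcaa (chr22:36529147-36529176, - strand)
EIF3F: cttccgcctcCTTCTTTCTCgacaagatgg (chr11:7987327-7987356, + strand)
EIF3K: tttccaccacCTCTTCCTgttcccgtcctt (chr19:38619178-38619207, + strand)
EIF3M: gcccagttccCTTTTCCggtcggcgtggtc (chr11:32583821-32583850, + strand)
EIF4A2: gcgccgctgtCTTTTCagtcgggcgctgag (chr3:186783567-186783596, + strand)
EIF4B: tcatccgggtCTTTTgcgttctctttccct (chr12:53006446-53006475, + strand)
EIF2AK4: gcccgtccccagcgcggagccccgccccgc (chr15:39934105-39934134, + strand)
EIF1: ccgcccctctgccccagtcactgagccgcc (chr17:41688875-41688904, + strand)
EIF4A3: cggcagcggcacagcgaggtcggcagcggc (chr17:80147109-80147138, - strand)

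By the median the 8 members with a TOP-like start were the lower class in HCT116. In that line their median log2 ratio was -0.20 against 0.08 for the other members with a sequence with ICG-001 at 12 h, with 5 of 8 below 0, and -0.50 against 0.02 at 96 h, with 6 of 8 below 0. With C646 it was -0.29 against 0.06 at 12 h, with 7 of 8 below 0, and -0.15 against -0.03 at 96 h, with 7 of 8 below 0. In PANC1 the medians were 0.02 against 0.02 and 0.11 against -0.03 with ICG-001, where 3 of 8 were below 0 at each time point, and -0.12 against -0.03 and -0.18 against -0.10 with C646, where 8 of 8 were below 0 at each time point. Of the 8, EIF2A, EIF3K and EIF4B were called against DMSO, beside 27.1% of all genes called in at least 1 comparison. At 12 h of ICG-001 in HCT116 EIF3D (0.42), EIF4A2 (0.41) and EIF3M (0.20) were above 0, and at 96 h EIF3D (0.15) and EIF4A2 (0.04) were. Among all genes with such a start, the share below 0 was 50.2% to 60.1% in the 8 comparisons, beside 48.7% to 54.8% of genes with another start. The medians of these classes over all genes were -0.05 and 0.01 at 96 h of ICG-001 in HCT116, far closer than those of the members. The same 8 members also differed from the others with no drug, with a median of 0.19 against -0.15 between the HCT116 DMSO columns of 96 and 12 h, and their part in the ratios at 96 h was not tested.

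**Figure D4:**
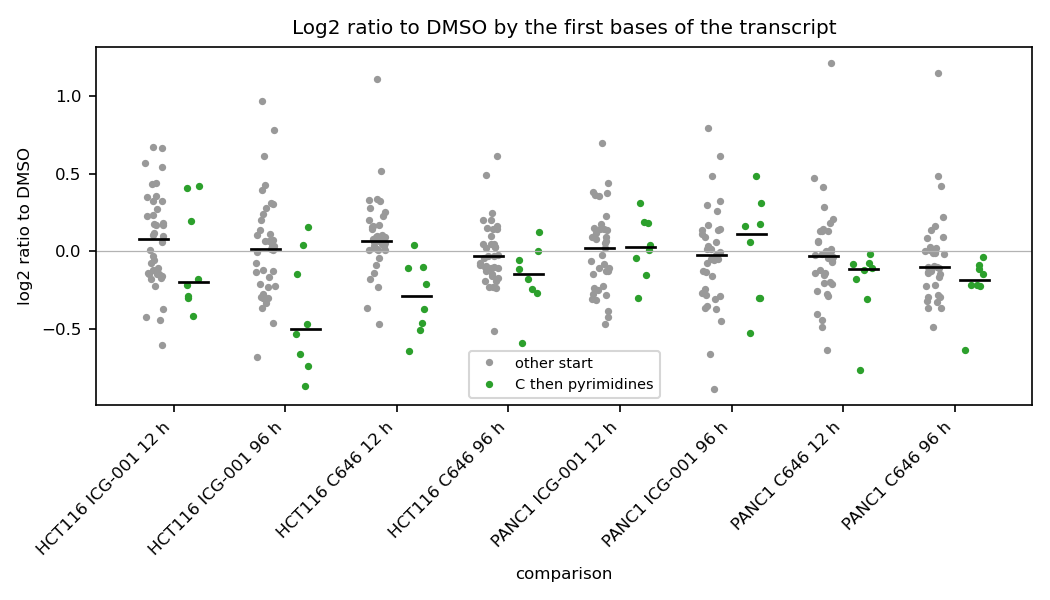
Log2 ratio to DMSO of members (points) by the first bases of their annotated transcripts, green for a C followed by pyrimidines and grey for another start, in the 8 comparisons, with the median of each class as a bar and EIF1AY not drawn. In HCT116 the green median is below the grey one in all 4 comparisons, by most at 96 h of ICG-001 (-0.50 against 0.02).

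Promoter windows from 250 bases before to 50 bases after each start were searched on both strands for sites of factors tied to these drugs and to eIF2 phosphorylation. The TCF/LEF core CTTTGAT was found for 1 of 48 members, EIF2B4, and in 2.62% of 35116 windows in RefSeq. The cyclic AMP response element TGACGTCA (1.85% of windows) and the C/EBP-ATF composite TGATGCAA (0.866%) matched no member.

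Genes that act beside the members were set next to them by lists of pathway genes. The lists were chosen with earlier results of these data known, so their counts are not independent evidence. The shares of all genes called, to be read beside the counts of every list, were those given above, 8.93% and 10.2% at 12 and 96 h of ICG-001 and 4.03% and 3.12% of C646 in HCT116, and 2.49% and 7.36% of ICG-001 and 6.64% and 3.99% of C646 in PANC1. Of 17 genes in the list of eIF2 phosphorylation control, some (ATF4, DDIT3, TRIB3, CEBPG and ATF3) act downstream of the phosphorylation. In HCT116 5 of the 17 were higher and 1 lower (PPP1CA) at 12 h of ICG-001, and 5 were higher and none lower at 96 h. In PANC1 6 were higher at 12 h, and 5 were higher and 1 lower (PPP1CB) at 96 h. The higher genes were PPP1R15A, DDIT3, TRIB3 and CEBPG in each ICG-001 comparison, with ATF4 or ATF3 or both. Among the genes of the list that are not downstream, PPP1R15A alone was called higher. PPP1R15B, PPP1CC, DNAJC3, GCN1L1, IMPACT, NCK1, PRKRA, TARBP2 and PRKRIR were called with neither drug. With C646 none of the list was called at 12 h in either line or at 96 h in PANC1, and 2, DDIT3 and TRIB3, were higher at 96 h in HCT116. The median of the list was 0.20 and 0.29 with ICG-001 in HCT116, -0.02 and 0.19 in PANC1, and 0.00 to 0.07 with C646. PPP1R15A, which directs a phosphatase to eIF2, had log2 ratios of 2.56 and 0.99 with ICG-001 in HCT116 and 1.12 and 0.93 in PANC1, against 0.16 and 0.37 and 0.20 and -0.22 with C646. The transcription factor CEBPG, induced downstream of eIF2 phosphorylation, gave 1.11 and 1.56 and 1.04 and 1.09 with ICG-001, and -0.16 and 0.03 and -0.20 and -0.34 with C646. EIF2AK4 of the members, in contrast, was higher with C646 than with ICG-001 at both time points in PANC1.

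Of 15 partners of the cap and the poly(A) tail, between 0 and 3 were called in a comparison, and their median lay between -0.15 and 0.04. PDCD4, an inhibitor of eIF4A, was higher with C646 in PANC1, at log2 ratios of 1.05 and 0.96, and stood at 0.66 and 0.43 in HCT116, of which the first was called. With ICG-001 it gave 0.62, a call, and 0.15 in PANC1 and 0.31 and 0.23 in HCT116. MKNK2, a kinase of EIF4E, gave 1.16 and 0.48 with ICG-001 in HCT116 and 1.01 and 0.64 in PANC1. Its C646 ratios were 0.82, a call, and 0.34 in PANC1 and -0.35 and 0.23 in HCT116. The DMSO signals of MKNK2 were higher at 96 h, at 975 and 1610 in HCT116 and 637 and 1302 in PANC1. In PANC1 the 12 h columns of ICG-001, at 1284, and of C646, at 1126, lay below the DMSO column of 96 h.

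The 15 genes of mTORC1 and its regulators gave 0 to 3 calls in a comparison, in both directions, with medians of -0.16 to 0.02. DDIT4 and SESN2, inhibitors of the pathway, were higher with ICG-001 at 12 h in both lines, at 1.13 and 1.11 for HCT116 and 1.64 and 0.76 for PANC1. At 96 h of ICG-001 SESN2 was called higher in both lines and DDIT4 in PANC1 only. DDIT4 was also higher at 96 than at 12 h with DMSO, at 5060 and 7891 in HCT116 and 1321 and 3197 in PANC1. Its ICG-001 signals at 12 h were 11105 and 4112 in these lines. The inhibitor DEPDC6 (DEPTOR) had log2 ratios of -0.51 and -0.44 with ICG-001 in HCT116 and -0.12 and -0.64 in PANC1, the last a call, and the inhibitor AKT1S1 (PRAS40) was below 0 in all 8 comparisons and called at 12 h of C646 in PANC1, at -0.70. RRAGD, a GTPase that recruits mTORC1 to the lysosome, was lower with ICG-001 in HCT116, at -0.88 and -1.45, and at 12 h of C646 in PANC1, at -0.83. MLST8, a subunit of the complex, was lower with C646 in PANC1, at -0.67 at each time point.

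Among 10 other initiation and recycling factors, of which 0 to 3 were called in a comparison, BZW2, a mimic of EIF5, was lower at 96 h of ICG-001, at -0.87 in HCT116 and -0.84 in PANC1. Of 13 elongation and release factors, of which 0 or 1 was called in a comparison, EEF2, which moves the ribosome along the mRNA, was lower at 96 h of ICG-001 in both lines, at -0.59 and -0.67. The HCT116 value of EEF2 was barely past the threshold. Its DMSO signals there were 14006 and 17565 at 12 and 96 h, beside 11707 after 96 h of ICG-001. DHPS, the enzyme that starts the hypusine modification of EIF5A, was lower at 12 h in HCT116 with ICG-001 (-0.66) and with C646 (-0.67).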

How the data were processed

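RNA of HCT116 and PANC1 cells was hybridised to Illumina HumanHT-12 v4 BeadChips. For every gene symbol the authors deposited 1 linear signal intensity. They took it from GenomeStudio after quantile normalization, left the background in, and averaged 2 arrays, or 3 in the PANC1 group with 12 h of ICG-001. Per the study's methods replicates were independent cultures, but arrays were not analysed singly here, so no spread was computed and the number of arrays limits the precision. The mean absolute difference of sorted log2 signals was 0.0037 to 0.0093 within a line and 0.063 to 0.066 between lines. Background left in the signal shrinks the ratios of dim genes.

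Groups came from the labels. Log2 signals were subtracted between 2 columns of a line, on all genes. Each column's detection limit was set 2.33 SD above the mode of its log2 signals, with the SD of the values under the mode. A gene was tested if above the limit in at least 1 column of the comparison, and called at 1.5-fold. The procedure was tested on simulated data, and the outcome of that test is not given here.

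Members and lists were chosen with earlier results of these data known. Signals in every column were given for members called against DMSO in at least 1 of 8 comparisons and for the EIF4EBP and EIF2AK rows, and ranges or counts for the rest. Start sequences and symbols came from RefSeq (GRCh38.p14), which held a start sequence for 48 of 59 members. The build of the array annotation is not given in the sources used here.

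Alternatives were thresholds of 1.2-fold and 2-fold, no filter, a limit at 5 SD, normexp correction (offset 16) with quantile normalization within a line, centring on the median, quantile normalization over 12 columns, and the DMSO column of the other time point. The normexp step ran in R 4.3.3 (limma 3.58.1) and all others in Python 3.11.15, using scipy 1.17.1, pandas 2.3.3, numpy 2.4.6 and, for figures, matplotlib 3.10.9.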

Additional observations from a re-analysis of the deposited data

Results flagged for a closer look

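The row EIF2AK1, the current name of the haem-regulated eIF2 kinase and an older name of EIF2AK2, stood on opposite sides of DMSO in the cell lines. Its mean log2 ratio over the 4 drug comparisons of HCT116 minus that of PANC1 was -0.33. All 4 HCT116 ratios were below 0, from -0.23 to -0.05, and all 4 PANC1 ratios were above 0, from 0.11 to 0.34. With 1 column per group the difference was not tested. Against the DMSO column of the other time point 2 of the 8 signs turned, to 0.13 for 96 h of ICG-001 in HCT116 and to -0.15 for 12 h of ICG-001 in PANC1. None of the ratios reached 1.5-fold. The HCT116 ratios with ICG-001 were close in size to the SD of the log2 ratios of genes under the limit, 0.072 at each time point. Among 13638 genes that could be tested in all 8 comparisons, 263 (1.93%) had such a pattern. Among 53 members EIF2AK1 was the only one, a share near that of all genes.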

How the results depend on the processing

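No paired analysis was possible because each group had 1 column. The fold threshold moved the counts of called members most. At 1.2-fold they were 24 and 27 in HCT116 for ICG-001 at 12 and 96 h, 13 and 6 for C646, 19 and 24 in PANC1 for ICG-001 and 15 and 14 for C646, beside 32.2% and 33.7%, 21.3% and 19.7%, 16.9% and 29.1%, and 26.5% and 21.3% of all genes. As shares of the members tested, these counts were 40.7% and 46.6%, 22.8% and 10.9%, 33.9% and 42.9%, and 26.8% and 25.5%, so the likeness to all genes at 1.5-fold did not hold at 1.2-fold in each comparison. At 2-fold they were 1 and 0, 1 and 0, 0 and 0, and 1 and 1 in the same order. ICG-001 over C646 gave 23 and 19 members in HCT116 (beside 27.6% and 27.4%) and 13 and 23 in PANC1 (beside 18.1% and 27.3%) at 1.2-fold, and 0 in each at 2-fold, and the DMSO columns gave 22 of 57 in HCT116 (beside 21.7%) and 7 of 54 in PANC1 (beside 15.3%) at 1.2-fold and 0 at 2-fold. With normexp correction the counts were 8 for ICG-001 and 5 for C646 at 12 h in HCT116, 9 for ICG-001 over C646 at 96 h in HCT116, 4 and 7 for it in PANC1 at 12 and 96 h, and 2 between the HCT116 DMSO columns. Against the DMSO column of the other time point they were 10 for ICG-001 and 6 for C646 at 12 h in HCT116, 9 for ICG-001 at 96 h in PANC1, and 1 and 4 for C646 in PANC1 at 12 and 96 h, and the median of the members was 0.14 for C646 at 12 h in HCT116. Under the other settings the counts stayed within 1.5 times those reported, and no median moved beyond the spread of background ratios.

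Of 30 calls, 30 were kept with no filter, with a limit at 5 SD and with centring, and 29 with normexp correction, which gave EIF4B -0.57 for C646 at 96 h in HCT116. Quantile normalization over 12 columns kept 26 and gave -0.52 for EIF4A3 (HCT116 ICG-001 12 h), -0.48 for EIF4B (HCT116 C646 96 h), and 0.58 both for EIF2AK4 (PANC1 ICG-001 96 h) and for EIF2C2 (PANC1 C646 12 h). The DMSO column of the other time point kept 21. It also ended calls of EIF4A3 (-0.26, HCT116 ICG-001 12 h), EIF2A (-0.56, HCT116 ICG-001 96 h), EIF2AK4 (0.55, PANC1 ICG-001 12 h), and EIF2C2 (0.57) and EIF4EBP2 (-0.39) for C646 at 12 h in PANC1, besides those of EIF4B and EIF6 given above. No call of a member changed direction under any of these settings, and these counts do not cover the genes of the pathway lists. The cause of these moves was not tested.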

Other observations

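EIF2D, an initiator tRNA delivery factor, appears in the table under its older symbol LGTN and so lay outside the rule on symbols. Its log2 ratios to DMSO in HCT116 were -0.21 and -0.22 at 12 and 96 h of ICG-001 and -0.21 and 0.28 of C646. In PANC1 they were 0.04 and -0.14 after ICG-001 and -0.06 and 0.18 after C646. None passed 1.5-fold.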
